A study of Mus musculus with 6 samples.

Results

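The 9 genes described here encode ligands and receptors of the EGF receptor family in the mouse bladder mucosa: the ligands Areg, Ereg, Hbegf, Tgfa, Btc and Epgn and the receptors Egfr, Erbb2 and Erbb3. They were taken as a fixed list of family members, found by Ensembl identifier in the tables of all 6 libraries, and are 9 of the 14338 genes that could be compared across the libraries. The identifiers were ENSMUSG00000029378 (Areg), ENSMUSG00000029377 (Ereg), ENSMUSG00000024486 (Hbegf), ENSMUSG00000029999 (Tgfa), ENSMUSG00000082361 (Btc), ENSMUSG00000035020 (Epgn), ENSMUSG00000020122 (Egfr), ENSMUSG00000062312 (Erbb2) and ENSMUSG00000018166 (Erbb3). Wild-type C57BL/6 mice of 8 weeks were left untreated (healthy) or were given cyclophosphamide (CPP), a drug whose metabolites injure the bladder lining. The treated mice were examined 48 h after CPP (acute) or after 4 rounds of CPP, labelled as day 11 (chronic). By the methods of the study, the chronic bladders were also taken 48 h after the last injection. Each condition had 2 libraries, prepared from dissociated cells of the mucosal layer of pooled male and female mice. The sources used here do not tie the mice to the libraries, so p-values measure the spread between these libraries.

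EGF family ligands are made as membrane-anchored precursors, are released by metalloproteases such as ADAM17, and bind receptor tyrosine kinases on the same or neighbouring cells. Areg, Tgfa and Epgn bind Egfr, Hbegf, Ereg and Btc can also bind Erbb4, Erbb2 has no known ligand of its own and acts as a partner, and Erbb3 binds neuregulins and signals mainly through its partner. In stratified epithelia this family is known for its part in growth and repair. The urothelium is such an epithelium, with basal cells on the lamina propria, intermediate cells above them and superficial (umbrella) cells that carry the uroplakin plaques.

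The libraries held between 5348 and 15062 cell barcodes and between 54604109 and 111985678 unique molecular identifiers (UMIs), with a median of 5530 to 9138 UMIs per cell. Any pair of libraries shared 0.673% to 2.28% of the smaller library's barcodes. Levels are UMI counts scaled to a common total of UMIs (CPM, counts per 1e6 UMIs) of the cells of 1 class summed in 1 library, which corrects for depth but not for transcript length, so levels were compared between classes and not between genes. The urothelial cells comprised 37310 cells, among them 3355 basal, 26182 intermediate and 3705 superficial cells outside the cell cycle. The stroma and blood-derived classes were 4462 fibroblasts, 3598 myofibroblasts, 952 macrophages, 485 endothelial cells in 5 libraries, 355 NK and T cells in 3 libraries and 140 mural cells in 2 libraries. A further 2494 mesenchymal cells lay in sub-clusters named neither fibroblast nor myofibroblast and were left out of these classes. The 8 urothelial markers summed to 12365 CPM in the urothelial cells and to 1809 to 5675 CPM in the other types. The clusters were named from these markers, so the sums describe the types and do not check their names. The urothelial RNA found in those other types is given beside the values it touches, as the summed level of 4 uroplakins in percent of the level in urothelial cells of the same library. What it would carry was taken from the level in all urothelial cells together. Basal cells had 15.4% to 32.1% of the urothelial uroplakin level and, on average, the most Hbegf, Areg and Egfr of the layers. RNA from basal cells alone would thus carry more of these genes at the same uroplakin level, and that case was not tested.

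**Figure D1:**
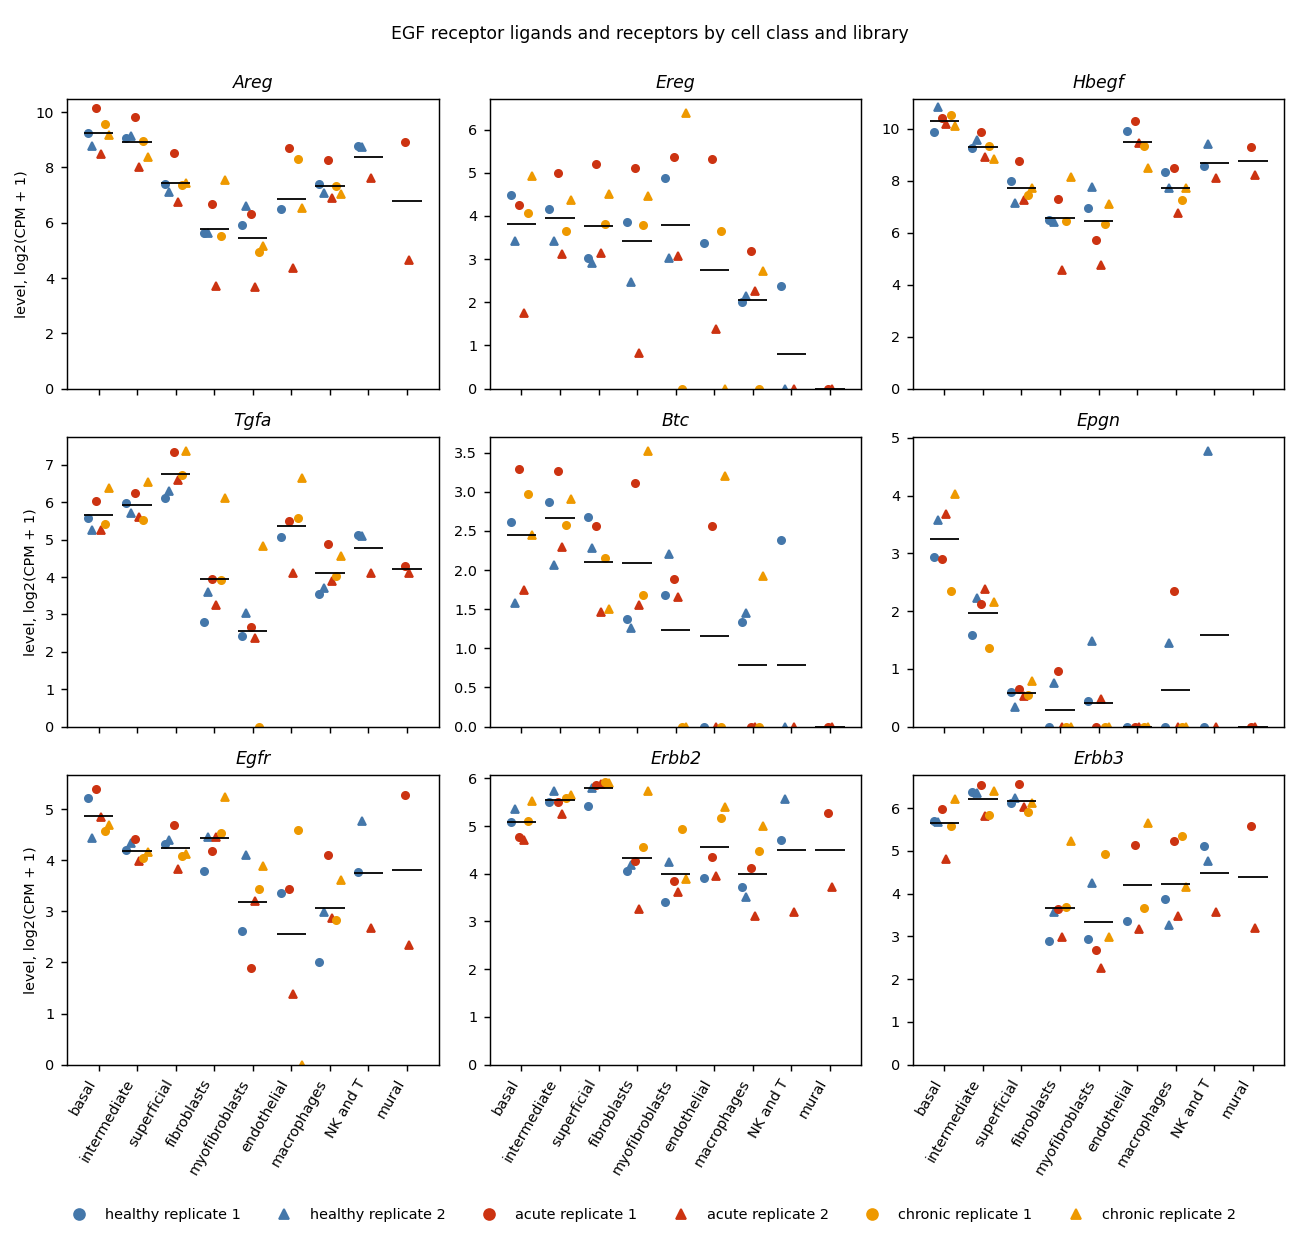
Level of each of the 9 genes by cell class, as log2(CPM + 1), with 1 point per library coloured by condition and a bar at the mean of the libraries. Among the classes shown, which leave out cycling cells, Hbegf was highest in basal and endothelial cells, Tgfa in superficial cells, and Erbb3 in the urothelial classes. The levels of Egfr in fibroblasts and urothelial cells overlapped.

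Epgn, Ereg, Areg and Btc are neighbours on chromosome 5 in the GRCm38.p6 annotation of RefSeq, at chr5:91027517-91035212, chr5:91074617-91093649, chr5:91139599-91148432 and chr5:91357261-91402994. Tgfa lies at chr6:86195038-86275744, Erbb3 at chr10:128567523-128589635, Egfr at chr11:16752203-16913907 and Erbb2 at chr11:98412484-98437716. The 250 bases before the starts of Epgn (chr5:91027267-91027516, plus strand) and Areg (chr5:91139349-91139598, plus strand) are shown because these neighbours both fell from the basal to the superficial layer, and capitals mark the motifs found.
Epgn: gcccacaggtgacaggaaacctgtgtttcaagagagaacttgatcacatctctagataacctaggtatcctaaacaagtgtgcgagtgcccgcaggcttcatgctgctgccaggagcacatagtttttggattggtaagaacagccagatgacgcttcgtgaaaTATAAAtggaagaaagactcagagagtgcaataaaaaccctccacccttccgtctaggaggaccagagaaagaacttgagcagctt
Areg: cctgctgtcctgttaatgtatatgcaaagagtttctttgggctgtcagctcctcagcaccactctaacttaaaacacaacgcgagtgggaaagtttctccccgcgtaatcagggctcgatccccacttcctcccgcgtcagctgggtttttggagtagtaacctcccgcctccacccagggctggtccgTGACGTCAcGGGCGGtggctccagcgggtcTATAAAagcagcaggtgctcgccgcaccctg
Of the members with a RefSeq promoter entry, Areg alone held the cAMP response element TGACGTCA in this window, at 61 to 54 bases before its start, as did 508 of all 32851 promoters (1.55%). The TATA motif TATAAA, present in 12.4% of all promoters, stood 86 to 81 bases before the start of Epgn and 31 to 26 bases before that of Areg. Areg also held the GC box GGGCGG (32.7% of all promoters), 52 to 47 bases before its start, and none of the 6 members with an entry held the AP-1 motif TGANTCA (6.75% of all promoters). Both strands were searched, the motifs did not overlap, and a match describes letters in the window only.

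The first question was how the ligands and receptors were distributed over the urothelial layers, compared within each library. Between intermediate and basal cells, 7 of the 9 members differed at an adjusted p below 0.05, against 40.8% of all 12822 genes tested. Tgfa, Erbb2 and Erbb3 were higher in intermediate cells (20.6% of all genes were), and Hbegf, Epgn, Egfr and Areg were lower (20.2%). Between superficial and intermediate cells, 6 of the 9 differed, against 51.4% of 12878 genes. Tgfa and Erbb2 were higher in superficial cells (25.9% of all genes were), and Hbegf, Areg, Epgn and Btc were lower (25.5%). The members' share in the second comparison was near that of all genes.

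Hbegf, the heparin-binding ligand of Egfr, had 928, 1800.2, 1342, 1158, 1474 and 1087 CPM in basal cells of healthy replicates 1 and 2, acute replicates 1 and 2 and chronic replicates 1 and 2. In intermediate cells it had 609, 751, 939, 485, 636 and 457 CPM, and in superficial cells 249, 141, 429, 151, 173 and 210.3 CPM, in the same order of libraries. Basal exceeded intermediate and intermediate exceeded superficial cells in 6 of 6 libraries, and the basal level was 3.13 to 12.7 times the superficial one. The log2 difference was −0.92 ± 0.08 (SE; adjusted p = 1.56e-09) between intermediate and basal cells and −1.48 ± 0.14 (adjusted p = 3e-07) between superficial and intermediate cells.

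Areg (amphiregulin) had 606.5, 432, 1127, 360.0, 749 and 572 CPM in basal cells, in the same order of libraries. The levels were 539.9, 563, 900.1, 260.4, 498 and 329 CPM in intermediate cells and 166, 137, 369.7, 107, 163 and 173 CPM in superficial cells. Superficial cells were lowest in 6 of 6 libraries, 2.6-fold below intermediate cells (log2 −1.38 ± 0.11, adjusted p = 7.54e-08). Basal cells were higher than intermediate cells in 5 of 6 libraries (log2 −0.22 ± 0.09, adjusted p = 0.0448). That call was lost in 6 of 13 alternative settings, among them without either acute or either chronic library (log2 −0.14 to −0.23), whereas the difference was larger without healthy replicate 2 (log2 −0.36) and when cells were clustered without integration (log2 −0.87, adjusted p = 6.62e-07).

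Epgn (epigen) was at 9.23 ± 4.17 CPM in basal, 3.05 ± 1.03 in intermediate and 0.497 ± 0.156 CPM in superficial cells (SD, n = 6). The order was the same in 6 of 6 libraries. The log2 difference was −1.49 ± 0.19 (adjusted p = 3.85e-07) at the first step and −2.48 ± 0.28 (adjusted p = 2.53e-06) at the second. In each library Epgn had 0 to 3 UMIs in each superficial sub-cluster, cycling cells included. The size of the second step is thus uncertain (log2 −3.41 to −2.29 over the alternative settings).

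Tgfa went the other way. Its levels were 46.5, 37.5, 64.1, 37.2, 41.9 and 82.4 CPM in basal cells, 61.5, 51.1, 75.0, 47.2, 44.9 and 91.4 CPM in intermediate cells and 68.8, 77.9, 163, 95.4, 105 and 164 CPM in superficial cells. The level rose from basal through intermediate to superficial cells in 6 of 6 libraries. The log2 differences were 0.39 ± 0.07 (adjusted p = 0.000153; 0.24 and no longer called when cells were clustered without integration) and 0.94 ± 0.10 (adjusted p = 2.44e-06). Without integration, only healthy replicate 1, acute replicate 1 and chronic replicate 2 had enough basal cells.

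Ereg (epiregulin) did not pass the test between the layers. It had 16.1 ± 9.35 CPM in basal, 16.1 ± 8.49 in intermediate and 15.4 ± 11.6 CPM in superficial cells (SD, n = 6; adjusted p = 0.678 and 0.979), and its range within each layer was wide. It was called higher in superficial than in intermediate cells in 2 alternative settings, without integration (log2 0.43 ± 0.13, adjusted p = 0.00751) and with superficial cells of 1 sub-cluster (log2 0.34 ± 0.11, adjusted p = 0.0158), against a reported log2 difference of 0.01. Btc (betacellulin) had 4.94 ± 2.62, 5.57 ± 1.97 and 3.54 ± 1.51 CPM in the same layers. Btc was lower in superficial than in intermediate cells in 5 of 6 libraries (log2 −0.61 ± 0.20, adjusted p = 0.0193), a call lost without acute replicate 2 or chronic replicate 2 (log2 −0.54 and −0.43).

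Among the receptors, Egfr was highest in basal cells, at 36.3, 20.7, 41.1, 27.8, 22.7 and 24.9 CPM in the 6 libraries, against 14.9 to 20.3 CPM in intermediate and 13.1 to 24.8 CPM in superficial cells. The basal level exceeded the intermediate one in 6 of 6 libraries (log2 −0.61 ± 0.11, adjusted p = 0.00011), while the step to superficial cells did not pass the test (log2 0.15 ± 0.09, adjusted p = 0.163). Erbb2 had 33.8 ± 7.65, 45.7 ± 5.21 and 55.1 ± 6.75 CPM in basal, intermediate and superficial cells (SD, n = 6). It rose at both steps (log2 0.53 ± 0.09, adjusted p = 1.48e-05, and 0.37 ± 0.08, adjusted p = 0.00156), in 6 and 5 of 6 libraries. Erbb3 had 51.7 ± 15.5, 74.9 ± 15.5 and 71.5 ± 11.9 CPM, so that it was higher in intermediate than in basal cells (log2 0.67 ± 0.09, adjusted p = 7.16e-07, 6 of 6 libraries) and did not pass the test between superficial and intermediate cells (adjusted p = 0.676).

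**Figure D2:**
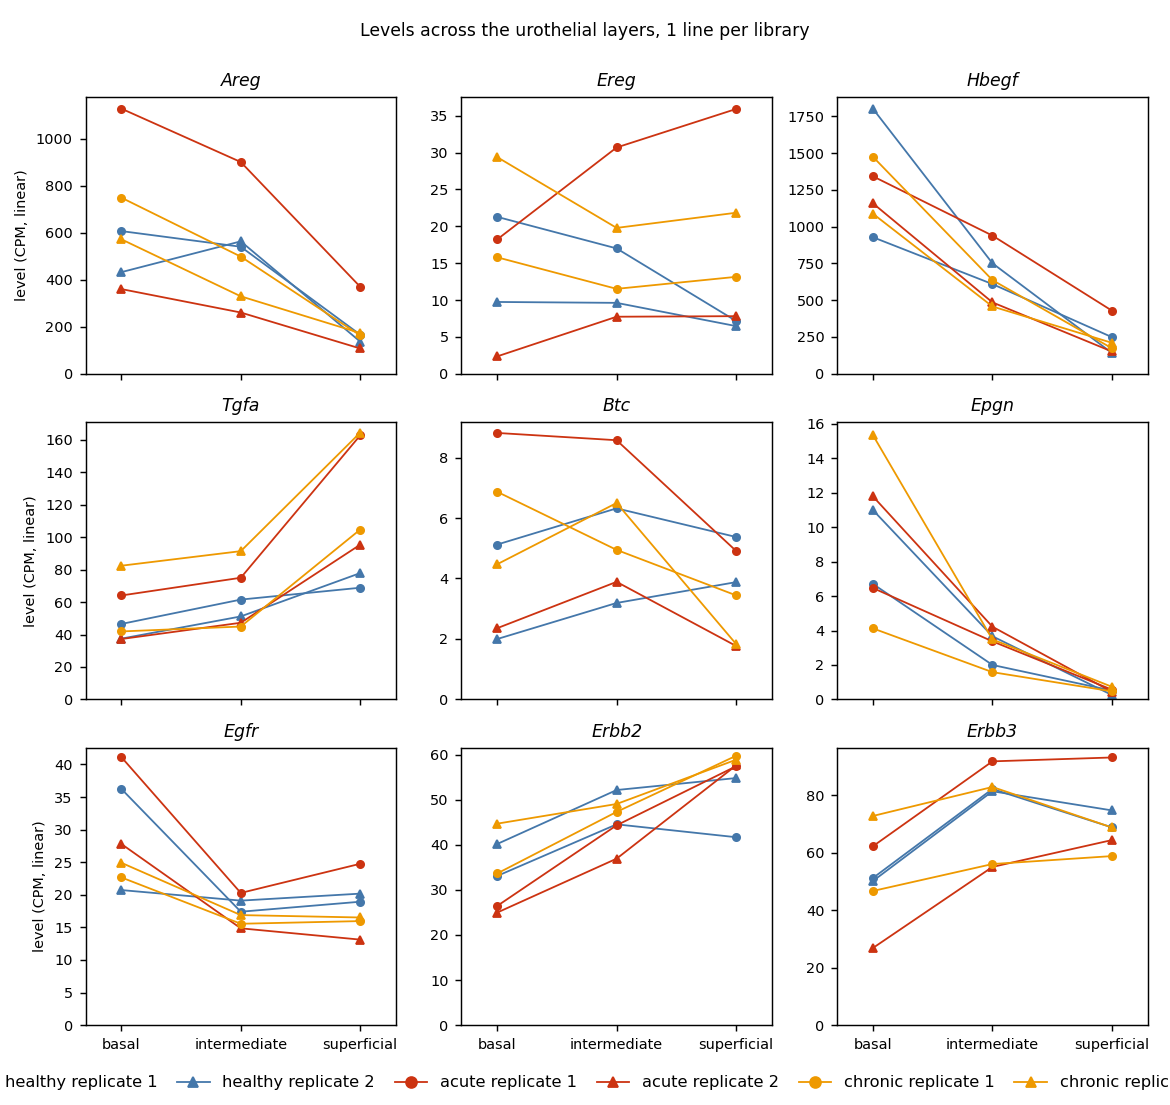
CPM of each member in basal, intermediate and superficial cells, with 1 line per library coloured by condition and a linear axis from 0 in each panel. The lines of Hbegf and Epgn fell and those of Tgfa rose in 6 of 6 libraries, those of Erbb2 rose in 5 of 6, and those of Ereg and Btc followed no common order.

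The layers also differed in 15 immediate-early genes, which tissue dissociation is known to induce. Their summed level was 12135 to 18937 CPM in basal, 7021 to 10458 CPM in intermediate and 4467 to 6205 CPM in superficial cells, and so fell in the same order as Hbegf, Areg and Epgn. Its part in these differences was not tested. Median depth rose in the opposite order, from 2720 to 4434 UMIs per basal cell to 3802 to 5405 per intermediate and 6246 to 9988 per superficial cell.

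Shares of cells with at least 1 UMI were therefore compared among the cells with at least 2000 UMIs, each thinned to 2000 UMIs. Cells with fewer were left out, so thinned and unthinned shares do not cover the same cells. Hbegf was then found in 80.4% ± 4.39 of basal, 58.6% ± 7.26 of intermediate and 30.7% ± 8.73 of superficial cells (SD, n = 6), and in 11.5% ± 4.06 of myofibroblasts, the class with its lowest share. Without thinning the shares were 91.0%, 76.9%, 60.1% and 18.3%, at a median of 2237 to 4394 UMIs per myofibroblast. Erbb3, an epithelial receptor, was found in 13.1% ± 2.76 of thinned intermediate cells (29.8% unthinned) and in 4.54% ± 3.71 of macrophages (6.47% unthinned), a class that should lack it, at a median of 2179 to 4028 UMIs per macrophage. Tgfa rose from 9.75% of basal to 19.0% of superficial cells after thinning (18.2% and 51.2% unthinned), against 3.28% of macrophages (5.46% unthinned).

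Cells in the cell cycle were compared with the other cells of their layer. They were called where an S or G2/M score lay over 2 scaled median absolute deviations above its median. The make-up of this class differed between libraries. Healthy replicate 2 had 178 cycling basal cells, and 23 of its cells fell in the basal sub-cluster of cycling cells, against 703 and 607 in acute replicate 1. In basal cells 1 member differed, Hbegf, against 21.7% of all 10219 genes (10.4% lower): it was lower in cycling cells in 6 of 6 libraries (log2 −0.40 ± 0.07, adjusted p = 2.31e-05). The immediate-early genes were also lower in cycling basal cells in 6 of 6 libraries, at 9984 to 18072 CPM against 12135 to 18937 CPM, and in cycling intermediate cells in 5 of 6, and their part in the cycling comparisons was not tested. In intermediate cells 2 members differed, against 31.7% of 13165 genes (17.1% lower). These were Areg (log2 −0.43 ± 0.10, adjusted p = 0.00268, lower in 5 of 6 libraries) and Hbegf (log2 −0.46 ± 0.12, adjusted p = 0.00733, lower in 4 of 6), the latter a call lost without integration and with layers set by the score of each cell (log2 −0.33 and −0.28). In the healthy libraries cycling cells had 618 and 790.0 CPM of Hbegf against 609 and 751 CPM in the other intermediate cells, and so were not lower. The cycling intermediate cells also stood nearer to superficial cells in their uroplakins, at 97.9% to 151% of the urothelial level against 68.9% to 90.4% in the other intermediate cells. They included most cells of a sub-cluster of 977 cells, 93.1% of them cycling and 14 and 10 of them from the healthy libraries, in which the uroplakins reached 146% to 179%, Areg 142 to 442 CPM and Hbegf 185 to 499 CPM in the 4 injured libraries. The part of this shift in the calls of Areg and Hbegf was not tested.

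The other genes of the pathway were then followed over the layers in 4 lists. The targets list, genes that EGF receptor and MAPK signalling are known to induce, had 7 of 7 genes lower in intermediate than in basal cells and 5 of 7 lower in superficial than in intermediate cells, where 20.2% and 25.5% of all genes were lower. Its median log2 difference was −0.56 and −0.57, beside 0.01 and 0.00 over all genes tested. Fosl1, an AP-1 subunit, fell from 212 ± 84.0 CPM in basal to 83.7 ± 32.7 in intermediate and 17.8 ± 7.36 CPM in superficial cells (log2 −1.23 ± 0.06 and −2.15 ± 0.09). The ETS factor Etv5 (log2 −0.93 and −1.24), the cyclin gene Ccnd1 (log2 −0.82, intermediate against basal) and Phlda1 (log2 −1.07, superficial against intermediate) were lower as well. Egr1 stands in this list and in the immediate-early list, so the 2 lists share a gene.

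Of 16 inhibitors of the pathway, 10 were lower in intermediate than in basal cells and 11 were lower in superficial than in intermediate cells, and none was higher, against 20.2% and 25.5% of all genes lower and 20.6% and 25.9% higher. The medians were −0.52 and −0.71. Dusp6, which dephosphorylates ERK, had 125 ± 50.8, 44.6 ± 20.5 and 18.0 ± 9.26 CPM in basal, intermediate and superficial cells (log2 −1.42 ± 0.09 and −1.24 ± 0.10). Spry4, a Sprouty inhibitor (log2 −1.31 and −1.38), Lrig3 (log2 −1.09, first step) and Dusp5 (log2 −1.38, second step) were also lower.

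Of 7 genes of ligand shedding, 2 were lower in intermediate than in basal cells, Rhbdf2 (log2 −0.42 ± 0.10) and Timp3 (log2 −0.32 ± 0.12), and the median was 0.06. Of all genes 20.2% were lower at this step, and 25.9% were higher and 25.5% lower at the next, so the shedding counts lay near the background. In superficial against intermediate cells Adam17, the main sheddase of these ligands, and Rhbdf1 were higher (log2 0.49 ± 0.09 and 0.31 ± 0.09), while Rhbdf2 (log2 −0.82 ± 0.09) and Adam10 were lower, with a median of −0.07. Among the other ligands, the neuregulins Nrg1 and Nrg2 were lower at both steps, Nrg1 by −2.78 ± 0.18 and −1.81 ± 0.33 on the log2 scale, and Egf was higher in superficial cells (log2 0.80 ± 0.32, adjusted p = 0.0482, higher in 4 of 6 libraries). The neuregulin receptor Erbb3 and the neuregulins ran in opposite directions between basal and intermediate cells.

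**Figure D3:**
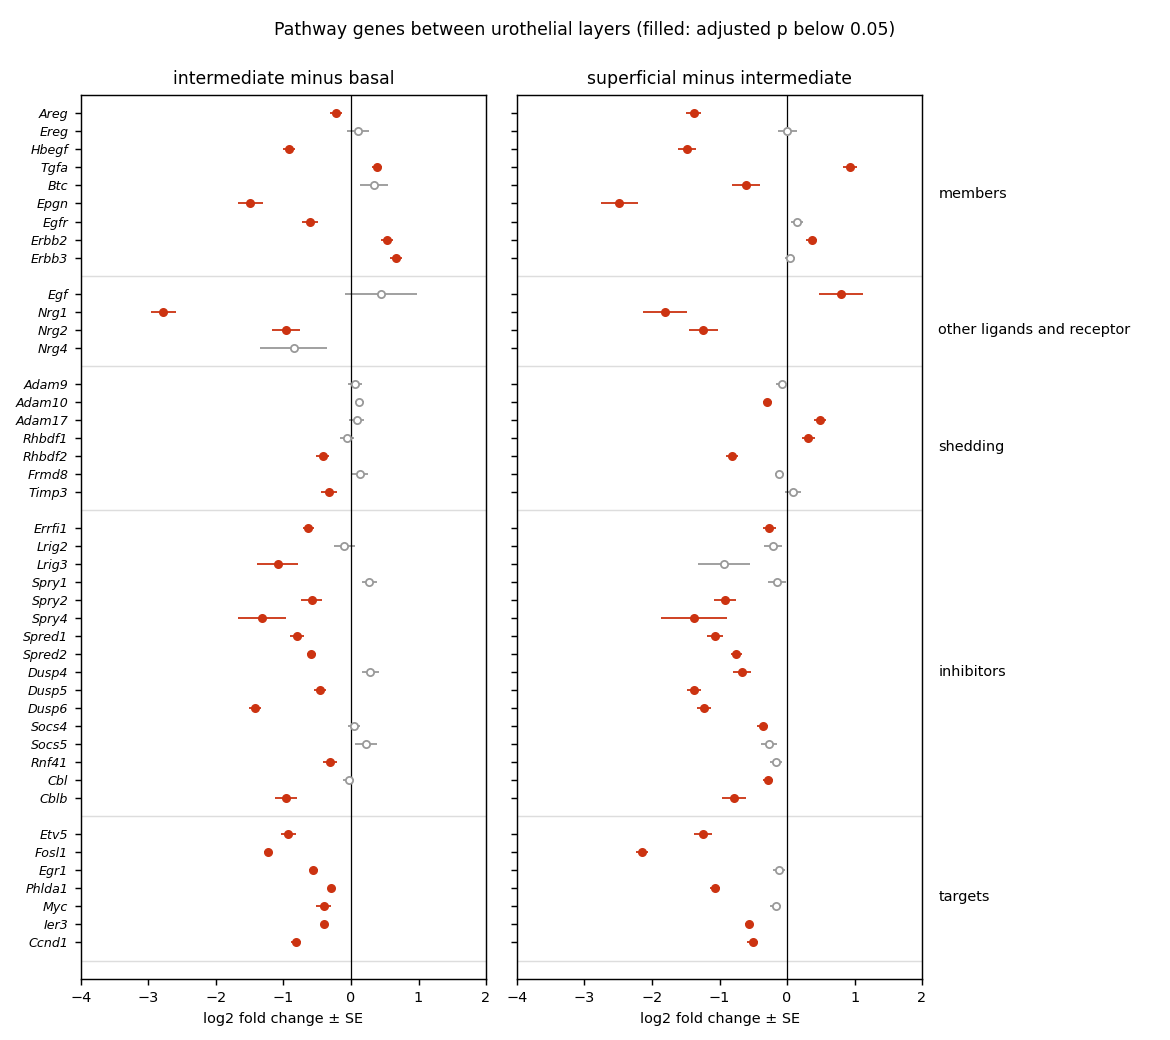
Log2 difference between intermediate and basal cells and between superficial and intermediate cells for the 9 members and the genes of the 4 pathway lists, with filled symbols for an adjusted p below 0.05 and bars of 1 SE. All 7 targets lay below 0 at the first step, and 10 and 11 of the 16 inhibitors were significantly lower at the first and second step.

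Next, the urothelium was compared with the stroma. Of the 9 members, 7 were higher in urothelial cells than in fibroblasts, against 66.5% of all 13810 genes that differed and 37.5% that were higher. The log2 difference was 3.58 for Epgn, 3.13 for Areg, 2.82 for Erbb3, 2.80 for Hbegf, 2.42 for Tgfa, 1.47 for Erbb2 and 0.93 for Btc, beside a median of 0.16 over all genes. Epgn had 3 UMIs in the fibroblasts of all 6 libraries, so the size of its difference is uncertain (log2 2.67 to 5.32 over the alternative settings). Btc lost its call without healthy replicate 1, healthy replicate 2 or chronic replicate 1 (log2 0.66, 0.87 and 0.86). In fibroblasts the uroplakins stood at 6.53% to 34.3% of the urothelial level, highest in chronic replicate 2 with 51 fibroblasts. The levels of Areg in fibroblasts, 48.9, 48.5, 102, 12.02, 44.9 and 183 CPM, exceeded what that share of urothelial RNA would carry in 3 of 6 libraries. The immediate-early genes in fibroblasts summed to 7979.7 to 31053 CPM and were, like Areg, lowest in acute replicate 2.

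Egfr was measured in fibroblasts at levels that overlapped the urothelial ones. It had 12.8, 20.9, 17.2, 20.9, 22.0 and 36.7 CPM in fibroblasts and 19.0, 19.6, 26.1, 16.3, 16.0 and 18.0 CPM in urothelial cells. The fibroblast range was the wider one, and the log2 difference was 0.01 ± 0.18 (adjusted p = 0.969). The fibroblast level was 5.41 to 10.2 times what urothelial RNA of the mean urothelial level would carry, in 6 of 6 libraries. RNA from basal cells alone, which held more Egfr and lower uroplakin levels, was not tested. Ereg did not pass the test either (log2 0.50 ± 0.27, adjusted p = 0.126).

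Between myofibroblasts and fibroblasts 3 members differed, against 19.4% of 11130 genes (9.97% higher and 9.42% lower in myofibroblasts). Egfr was lower in myofibroblasts in 6 of 6 libraries, at 9.30 ± 5.10 against 21.8 ± 8.05 CPM (SD, n = 6; log2 −1.22 ± 0.24, adjusted p = 0.000918). Tgfa was also lower in 6 of 6 (log2 −0.93 ± 0.29, adjusted p = 0.0308). It was 0 to 1.64 times what the urothelial RNA in myofibroblasts would carry, above it in 2 of 6 libraries, and 1.09 to 2.36 times in fibroblasts. Ereg was higher in myofibroblasts in 5 of 6 libraries, at 28.3, 7.20, 40.3, 7.43, 0 and 82.5 CPM against 13.6, 4.54, 33.5, 0.775, 12.8 and 20.9 CPM in fibroblasts (log2 1.06 ± 0.31, adjusted p = 0.0177). The library at 0, chronic replicate 1, and chronic replicate 2, at 82.5 CPM, were the smallest sums of myofibroblasts. The call of Ereg was lost with DESeq2 and without healthy replicate 1 or acute replicate 2 (log2 1.08, 1.07 and 0.83), and that of Tgfa in 7 of 12 settings, at log2 −0.61 with doublets kept and −0.81 to −1.06 in the other 6, among them without either acute library or chronic replicate 2.

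In the pathway lists, Timp3, a matrix-bound inhibitor of metalloproteases, had 1336 ± 571 CPM in fibroblasts against 14.1 ± 4.64 CPM in urothelial cells (log2 −6.40 ± 0.24, urothelial against fibroblasts) and was lower in myofibroblasts (log2 −2.51 ± 0.24). Of 7 shedding genes, 2 were higher and 3 lower in urothelial cells than in fibroblasts (37.5% and 29.0% of all genes), with a median of −0.10. Of 16 inhibitors, 7 were higher and 6 lower (Dusp4 log2 2.40, Spry4 log2 −2.12, Dusp6 log2 2.04), with a median of −0.11, and of 7 targets 2 were higher and 2 lower (Ccnd1 log2 1.60, Fosl1 log2 1.52, Egr1 log2 −1.44), with a median of −0.14. Of the 4 other ligands tested, 1 differed, Nrg2 (log2 −1.55 ± 0.28, lower in urothelial cells). Between myofibroblasts and fibroblasts 2 other ligands were tested, where 9.97% of all genes were higher and 9.42% lower. Nrg2 was lower in myofibroblasts (log2 −1.25 ± 0.32, adjusted p = 0.00913). Nrg1, a ligand of Erbb3, was higher, at 27.7 ± 24.4 CPM in myofibroblasts against 1.88 ± 2.65 CPM in fibroblasts (log2 2.74 ± 0.49, adjusted p = 0.000295).

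In macrophages 8 of the 9 members were lower than in urothelial cells, against 48.0% of 13570 genes that differed (26.6% lower and 21.3% higher). The other, Epgn, had 2 UMIs in all macrophages and was called, as lower, only without acute replicate 1 (log2 −2.85). The log2 differences of the 8 called members ranged from −1.13 (Egfr) to −1.99 (Btc). Btc had few counts here and lost its call with DESeq2 and without healthy replicate 1, chronic replicate 1 or either acute library (log2 −1.70 to −2.09). Macrophages held 15.4% to 39.0% of the urothelial uroplakin level, and their Areg, 169 ± 69.5 CPM, exceeded what that RNA would carry in 5 of 6 libraries.

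In endothelial cells 6 members were lower than in urothelial cells, against 33.6% of 13380 genes (17.6% lower). These were Areg, Tgfa, Epgn, Egfr, Erbb2 and Erbb3, and Epgn had no UMI in any of the 5 libraries and kept its call in 3 of 12 alternative settings. The call of Egfr was lost without acute replicate 2 (log2 −1.32). Hbegf was the ligand with the highest endothelial level relative to the urothelium. It had 952 CPM in healthy replicate 1, 1265 and 699 CPM in the acute and 637 and 361 CPM in the chronic libraries. The log2 difference from urothelial cells was 0.16 ± 0.18 (adjusted p = 0.522), and Hbegf was higher in endothelial cells in 4 of 5 libraries. The uroplakins in these cells reached 13.2% to 73.3% of the urothelial level, and Hbegf was 1.14 to 12.1 times what that RNA would carry, above it in 5 of 5 libraries. After thinning, Hbegf was found in 63.0% ± 15.1 of endothelial cells (71.6% unthinned).

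NK and T cells, found in sufficient number in 3 libraries, had 433 and 428 CPM of Areg in healthy replicates 1 and 2 and 195 CPM in acute replicate 2. That was 1.21 to 2.97 times what their urothelial RNA (27.9% to 72.0% of the uroplakin level) would carry. Mural cells, in both acute libraries, had 620 and 293 CPM of Hbegf, which was 3.58 to 3.85 times what their urothelial RNA (21.3% and 17.0% of the uroplakin level) would carry. No test was made of these classes.

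The last question was whether CPP injury changed any member within a class. In 16 comparisons of acute or chronic with healthy libraries over 8 classes, 0 of the 110 member tests passed an adjusted p of 0.05 with edgeR, and 0 passed with DESeq2. At an unadjusted p under 0.05, edgeR gave 5 and DESeq2 gave 6 of the 110, or 4.55% and 5.45%, against 5.53% and 4.31% of all 154830 gene tests. The members given below with an unadjusted p are thus a share near that of all genes. The shares of all genes called were 0.00724% in acute urothelial cells, 0.00913% in acute and in chronic fibroblasts, 0.0462% in acute myofibroblasts, 0.109% (0.0363% higher) in acute and 1.65% in chronic endothelial cells, and 0% in the other 10. The endothelial comparisons had 1 healthy library, of 53 cells, since the 16 endothelial cells of healthy replicate 2 were under the minimum of 20, and that library was assumed to vary like the others. In the other 7 classes, with 2 libraries per condition, an exact permutation test of single values cannot go below p = 0.333.

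In all urothelial cells, Areg had 499 and 491 CPM in healthy, 759 and 236 CPM in acute and 443 and 304 CPM in chronic libraries. The acute replicates thus lay on both sides of the healthy ones, and the log2 change was −0.02 ± 0.46 in acute and −0.38 ± 0.46 in chronic injury. Hbegf had 594 and 825, 814 and 448, and 589.6 and 433 CPM in the same order (log2 −0.18 ± 0.32 and −0.45 ± 0.32). In acute injury all 9 members overlapped the healthy libraries, where 16.9% of all genes lay above and 15.9% below both of them. In chronic injury Areg, Hbegf and Egfr were below both healthy libraries without overlap, as were 2768 of all 13815 genes. The layers made up different shares of these sums: 581 of 5518 and 1089 of 6729 urothelial cells were non-cycling basal cells in healthy libraries, against 478 of 8610 and 372 of 4757 in chronic ones, and superficial cells were 372 and 520 against 996 and 601. Within basal cells the chronic log2 change was 0.39 ± 0.45 for Areg, −0.06 ± 0.37 for Hbegf and −0.21 ± 0.35 for Egfr. In intermediate cells Areg and Egfr lay below both healthy libraries in chronic injury (18.9% of all genes), and in acute injury Erbb2 did so in basal and in intermediate cells (15.4% and 13.7%).

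Among the urothelial layers, the members with an unadjusted p under 0.05 were in superficial cells. Tgfa had 68.8 and 77.9 CPM in healthy, 163 and 95.4 CPM in acute and 105 and 164 CPM in chronic libraries. All 4 injured libraries lay above both healthy ones. The log2 change was 0.81 ± 0.30 in acute (unadjusted p = 0.0242, adjusted p = 0.572) and 0.86 ± 0.30 in chronic injury (unadjusted p = 0.0192, adjusted p = 0.513), by edgeR. Ereg had 7.16 and 6.47 CPM in healthy, 35.9 and 7.81 CPM in acute and 13.1 and 21.8 CPM in chronic libraries, without overlap, and its acute change rested mainly on acute replicate 1 (log2 1.64 ± 0.62, unadjusted p = 0.0271, adjusted p = 0.581). Ereg, Tgfa and Erbb2 were above both healthy libraries in acute and in chronic injury, where 16.7% and 21.0% of 11288 genes were, and Btc, Egfr and Erbb3 were below both in chronic injury (17.6%). Acute and chronic changes share the healthy libraries. The immediate-early genes summed to 4467 to 6205 CPM over these 6 libraries.

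**Figure D4:**
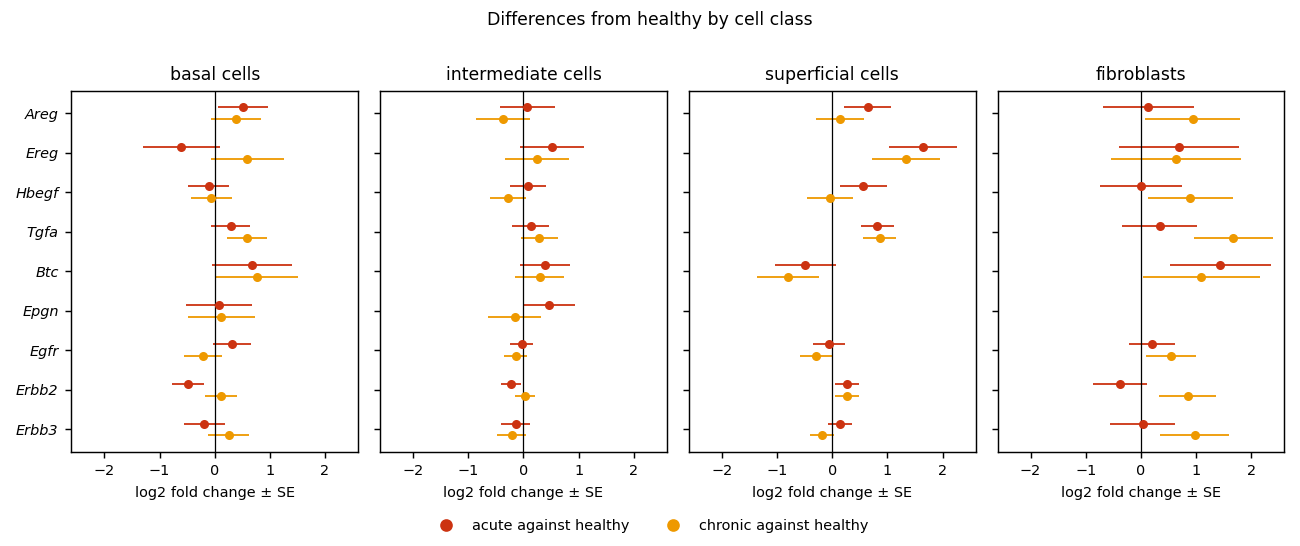
Log2 fold change of each member against healthy (points, with bars of 1 SE) in basal, intermediate and superficial cells and in fibroblasts, in red for acute and in orange for chronic injury; members not tested in a class have no point. In superficial cells Ereg (1.64) and Tgfa (0.81) lay above 0 in acute injury by more than 2 SE, and none passed an adjusted p of 0.05.

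The superficial cells came from 2 sub-clusters, one with the higher superficial marker score, led by Meg3, Slc16a12, Acer2 and Clu, and one led by Upk2 and Upk3a. The shares and levels by sub-cluster given here include cycling cells, unlike the superficial class used above. The first made up 46.9% and 34.4% of superficial cells in healthy, 81.8% and 74.6% in acute and 71.7% and 77.8% in chronic libraries. Its share thus did not overlap between healthy and injured libraries. Tgfa was at 92.9, 128, 175, 107, 119.9 and 182 CPM in this sub-cluster against 44.5, 45.1, 46.7, 44.5, 40.6 and 70.9 CPM in the other. It was higher in the first in 6 of 6 libraries, as were Ereg and Hbegf, while Btc was higher in 0 of 6. Within the non-cycling cells of the first sub-cluster alone the log2 change of Tgfa was 0.40 ± 0.31 in acute and 0.43 ± 0.31 in chronic injury. How far the change of shares carries the change of Tgfa in superficial cells as a whole was not tested.

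**Figure D5:**
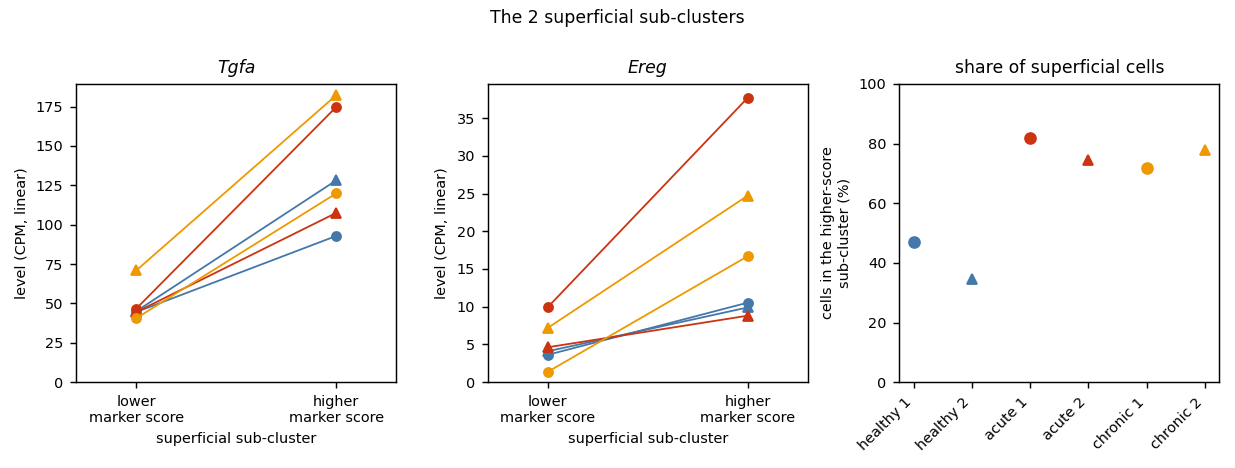
CPM of Tgfa and Ereg in the superficial sub-clusters, with 1 line per library, and the share of superficial cells in the sub-cluster with the higher marker score, with symbols and colours for libraries as named on the axis of the right panel. Cycling cells are included. Tgfa was higher in the sub-cluster of higher score in 6 of 6 libraries, and the share of that sub-cluster was 34.4% and 46.9% in healthy and 71.7% to 81.8% in injured libraries.

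Whether the acute change differed between layers was tested directly. Between superficial and intermediate cells, 2 members differed in their acute change, Ereg (log2 1.11 ± 0.26, adjusted p = 0.0141) and Tgfa (log2 0.67 ± 0.16, adjusted p = 0.0195), both more positive in superficial cells, against 2.61% of 12878 genes (1.02% more positive). In acute replicate 1, the library with the most Ereg, superficial cells had 35.9 and intermediate cells 30.7 CPM of it. Both calls were lost without healthy replicate 1 (log2 0.71 and 0.44), without acute replicate 1 (log2 0.94 and 0.60), with DESeq2 (log2 1.07 and 0.68) and with superficial cells limited to the sub-cluster of higher marker score (log2 0.74 and 0.29). Without integration Ereg was lost as well (log2 0.76, adjusted p = 0.752) and the difference of Tgfa turned its direction (log2 −0.15, adjusted p = 0.907). The main superficial sub-cluster then held 28 and 152 cells of healthy replicates 1 and 2, counted with doublets and cycling cells, so this setting rests on few healthy cells. Between intermediate and basal cells 0 members differed in their acute change by edgeR, against 0.0312% of 12822 genes, 2 passed at an unadjusted p under 0.05, and 0 passed with DESeq2. These were Ereg (log2 1.16 ± 0.31, adjusted p = 0.258) and Areg (log2 −0.48 ± 0.14, adjusted p = 0.424).

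In the stroma, fibroblasts of the chronic libraries had 14.1 and 68.1 CPM of Tgfa against 6.01 and 11.2 CPM in healthy fibroblasts (log2 1.67 ± 0.72, unadjusted p = 0.0435, adjusted p = 0.737). Tgfa, Btc, Egfr, Erbb2 and Erbb3 lay above both healthy libraries there, as did 21.6% of 10949 genes. Chronic replicate 2, the higher one, is the library with 51 fibroblasts and 34.3% of the urothelial uroplakin level, and Tgfa in fibroblasts was at 1.09 to 2.36 times what their urothelial RNA would carry, above it in 6 of 6 libraries. In myofibroblasts Hbegf had 122 and 214 CPM in healthy, 51.0 and 26.1 in acute and 78.7 and 137 CPM in chronic libraries. The acute libraries lay below both healthy ones, as did 16.4% of 6487 genes (log2 −2.20 ± 0.47, unadjusted p = 0.00108, adjusted p = 1.0). With no low-count filter the change was called at nearly the same size (log2 −2.22, adjusted p = 6.06e-05), and with doublets kept it was log2 −1.40. The uroplakin level in myofibroblasts was 6.39% and 25.6% in healthy, 7.61% and 10.8% in acute and 25.7% and 15.7% in chronic libraries. Hbegf was 0.519 to 3.20 times what that urothelial RNA would carry, above it in 3 of 6 libraries. The part of urothelial RNA in the change of Hbegf was not tested. The acute libraries had 17463 and 11870.0 CPM of immediate-early genes against 20250.4 and 14472 CPM in the healthy ones, and the part of these in the result was not tested.

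Of the pathway lists, 0 of 426 tests against healthy libraries passed with edgeR and 29 had an unadjusted p under 0.05 (6.81%, against 5.53% of all gene tests). DESeq2 called 3 of the 426 (0.704%, against 0.495% of all gene tests), which are named here after their values were seen. It called 0.977% of all genes in chronic urothelial and 0.172% in chronic basal cells. In urothelial cells the neuregulin Nrg1 had 5.63 and 7.71 CPM in healthy, 6.31 and 3.95 CPM in acute and 1.96 and 1.87 CPM in chronic libraries. Both chronic libraries lay below the other 4, with a log2 change from healthy of −1.78 ± 0.34 by edgeR (adjusted p = 0.416) and −1.77 ± 0.40 by DESeq2 (adjusted p = 0.00253). Basal cells, the layer with the most Nrg1, were a smaller share of the chronic urothelial cells, as given above for the members, and the chronic log2 change of Nrg1 by edgeR was −1.38 ± 0.50 within basal and −1.34 ± 0.37 within intermediate cells (adjusted p = 0.997 and 0.843). Nrg2 had 5.20 and 4.67, 4.05 and 3.25, and 1.25 and 2.24 CPM in the same order (log2 −1.49 ± 0.36, adjusted p = 0.557 by edgeR and 0.0353 by DESeq2). The third was the MAPK phosphatase gene Dusp4 in chronic basal cells (log2 1.81 ± 0.46, adjusted p = 0.0443 by DESeq2).

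Across 63 sums of 12 classes and the libraries, the genes whose log2(CPM + 1) ran most like that of each member were ranked by Pearson's r among 12876 genes. The sums share libraries and cell classes, so r is a description. For the ligands these were Pabpc1 (0.89) and Ezr (0.88) for Areg, Stxbp5 (0.67) and Pafah1b2 (0.65) for Ereg, Itga6 (0.89) and Avpi1 (0.87) for Hbegf, Adgrg6 (0.91) and Sh3bgrl2 (0.91) for Tgfa, Cnksr1 (0.72) and Lgr4 (0.68) for Btc, and Tspan1 (0.80) and Dlk2 (0.77) for Epgn. For the receptors they were Pitpnm1 (0.73) and Dicer1 (0.73) for Egfr, Ermp1 (0.92) and Tmprss2 (0.91) for Erbb2, and Tmem30b (0.93) and Rab15 (0.92) for Erbb3. Itga6, an integrin subunit, is one of the markers by which basal cells were scored, and Ereg and Btc had the lowest correlations.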

How the data were processed

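Droplet-based single-cell RNA sequencing (10x Chromium) was made of the bladder mucosa in 6 libraries, 2 each of healthy, acute and chronic mice. The authors aligned the reads to mm10 with Cell Ranger. They deposited, for each library, a table of raw UMI counts (genes by cells, not normalized). The depth was 88810283 and 79829001 UMIs in the healthy, 74954427 and 111985678 in the acute and 69211986 and 54604109 in the chronic tables. Cells above about 10% mitochondrial UMIs were absent, and the cut-off last line of 1 table was dropped. The tables list different gene sets, so the 14450 genes listed in all of them were used, less 112 mitochondrial and ribosomal genes. Reference positions and promoters came from RefSeq tables of GRCm38.p6, and members without an entry there (Ereg, Hbegf and Erbb3 for promoters) have no sequence shown.

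A cell was used if it had more than 500 genes and less than 10% mitochondrial UMIs. For doublets, Scrublet (scanpy 1.11.5) ranked the cells of each library and the top 0.8% per 1000 cells were removed (4.28% to 11.1% of a library), since the automatic threshold called 0 to 6 cells in 5 libraries and 715 in acute replicate 2. Counts were normalized with sctransform 0.4.2 and integrated with Seurat 5.3.0 on 3000 genes without the members and pathway genes, then clustered (Leiden, resolution 0.8). Clusters with over 33.3% doublets were left out. Clusters were named from at least 3 marker genes, and urothelial sub-clusters were called basal or superficial where the mean z of the layer's markers was over 1 and intermediate otherwise, except that a sub-cluster made up mostly of cycling cells was not called superficial (1 such, 93.1% cycling, with a mean z of 1.10). These naming rules, and the limit to genes listed in all tables, were settled after the data were seen. Of 37310 urothelial cells, 90.2% had the layer by their own score (basal or not) that their sub-cluster had.

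Counts were summed per library and class (at least 20 cells) and tested with edgeR 4.0.16 (quasi-likelihood F test, TMM factors, filterByExpr, Benjamini-Hochberg over all genes tested, threshold 0.05) in R 4.3.3. The SE of an edgeR value was derived as the absolute log2 difference divided by the square root of F. Contrasts between classes had library as a blocking term, conditions in all 6 libraries without a block, and acute changes between layers by an interaction term. On simulated data with 200 changed genes, the test recovered 195 of 4-fold changes between acute and healthy urothelial cells, with 5 false calls among 13790 genes, and 200 between intermediate and basal cells, with 7 false calls among 12696 genes. The simulated counts had 1 fixed dispersion (0.05) and no library or batch effects, and the changed genes had a mean over 20 counts. The recovery is thus not the power of the tests of conditions on the real libraries. DESeq2 1.42.0, RLE factors, no low-count filter, stricter cell filters, doublets kept, no integration, layers by the score of each cell, the replicate number as a block and each library left out were tried as alternatives. The 9 genes, the 4 pathway lists and the named genes (all members; in each list at most 3 called genes with the largest change per comparison; 2 nearest genes per member) were chosen with earlier results of these data known. Nrg3, Erbb4, Lrig1 and Etv4 were not analysed here.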

Additional observations from a re-analysis of the deposited data

Results flagged for a closer look

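The acute change of 2 members differed between superficial and intermediate cells by the interaction term in edgeR. For Ereg the acute change was larger in superficial cells by 1.11 ± 0.26 on the log2 scale (SE; adjusted p = 0.0141). Its superficial level was 35.9 and 7.81 CPM in the acute against 7.16 and 6.47 CPM in the healthy libraries, and its intermediate level was 30.7 and 7.74 against 17.0 and 9.62 CPM. For Tgfa the difference was 0.67 ± 0.16 (adjusted p = 0.0195), with 163 and 95.4 against 68.8 and 77.9 CPM in superficial cells and 75.0 and 47.2 against 61.5 and 51.1 CPM in intermediate cells. Of superficial cells, here with cycling ones included, 81.8% and 74.6% in the acute and 46.9% and 34.4% in the healthy libraries belonged to the sub-cluster of higher marker score. Both genes were higher in that sub-cluster, and the part of this shift in the result was not tested. Each of the differences kept its call in 9 of 14 alternatives. Both were lost with DESeq2, without healthy replicate 1, without acute replicate 1 and with superficial cells of 1 sub-cluster. Without integration, where few healthy superficial cells were found, Ereg was lost (log2 0.76) and Tgfa turned its direction (log2 −0.15).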

How the results depend on the processing

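Of 345 counts of members called under an alternative, over 26 comparisons, 331 lay within 1.5 times the count reported and 14 did not. In 16 of the 26, those with healthy libraries, the count reported was 0, and an alternative count of 0 was taken as the same. Few genes of any kind passed there, so these counts say little about stability. Of 42 called member values, 30 kept their call and direction under every alternative run, and 481 of 530 alternative values did. The 1 that turned its direction was the difference in the acute change of Tgfa between superficial and intermediate cells without integration (log2 −0.15). The count of members with such a difference, 2, became 0 with DESeq2, without integration and with superficial cells of 1 sub-cluster, and ranged from 0 to 3 with 1 library left out. Between intermediate and basal cells it ranged from 0 to 1. For cycling cells without integration it was 3 in basal (range 1 to 2 with 1 library left out) and 1 in intermediate cells (range 2 to 4). For myofibroblasts against fibroblasts it was 1 with DESeq2 and ranged from 1 to 3. In acute myofibroblasts 1 member, Hbegf, passed with no low-count filter. RLE factors moved the median of all genes by 0.11 (log2) in endothelial against urothelial cells.

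The replicate numbers share no animal in the sources used here. Deviations of equally numbered libraries correlated at 0.04 to 0.39 between healthy and acute and −0.37 to 0.10 between healthy and chronic, so the numbers were not taken to pair the libraries. The methods of the study state that the 6 samples were handled and sequenced in batches, without assigning them to libraries. Without integration, 1 urothelial cluster held 3181 cells of healthy replicate 1 and 2356 of acute replicate 1, against 0 to 34 of each other library. Whether these libraries share a batch was not tested. With the replicate block 0 members passed in all 16 comparisons. With the chronic numbers crossed, chosen after seeing the data, as was the sub-cluster setting, 1 member (Areg, chronic endothelial cells, with 1 healthy library) passed.

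Over all genes, DESeq2 called 3 to 274 genes in the comparisons with healthy libraries, where edgeR called 0 to 91 (274 against 1 in acute urothelial cells). Conditions without integration could not be fitted in basal cells (nor their interaction term) and myofibroblasts, nor endothelial cells without healthy replicate 1. Other comparisons with basal cells rested, without integration, on healthy replicate 1, acute replicate 1 and chronic replicate 2. The main superficial sub-cluster without integration held 28 cells of healthy replicate 1 and 152 of healthy replicate 2, counted with doublets and cycling cells. Members under 10 CPM rest on few counts, and at most 2 libraries per condition limit every comparison of conditions.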

Other observations

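In the mesenchyme, several sub-clusters met neither the fibroblast nor the myofibroblast markers and were left out of the stromal comparisons. A sub-cluster of 943 cells had 328 ± 232 CPM of Areg and 486 ± 318 CPM of Hbegf (SD, n = 4). Its uroplakins stood at a mean of 35.7% of the urothelial level. In a sub-cluster of 897 cells these values were 178 ± 145 CPM, 251 ± 141 CPM (SD, n = 6) and 24.8%. Areg was among the leading genes of both, so these levels are a description. Another, of 903 cells, was led by Cxcl10, Ereg and Il6. Ereg was not among the genes used for clustering. It was picked out here as a leading gene of the sub-cluster of 903 cells, so its levels there are a description. They were 103 and 26.8 CPM in healthy, 159 and 17.3 CPM in acute and 0 and 53.4 CPM in chronic libraries, the last on 35 and 56 cells. The uroplakins stood at 5.67% to 28.6% of the urothelial level in these cells.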
